A study of Caenorhabditis elegans with 2 samples.

Results

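Small nucleolar RNA (snoRNA) genes were examined for chromatin sites of ZTF-16, a nematode zinc-finger protein of the C2H2 type with kinship to Hunchback and Ikaros, in Caenorhabditis elegans. All 346 snoRNA-biotype genes on the 6 nuclear chromosomes of the Ensembl annotation of WBcel235 (the assembly also named ce11) were taken. Of these, 216 lay inside a protein-coding gene and 130 lay outside one. The chromatin immunoprecipitation and sequencing (ChIP-seq) data came from 1 group, late embryos of strain OP558, with genotype unc-119(tm4063) III; wgIs558, pooled from both sexes and taken 5 hours after egg-bleach synchronisation. The integrated transgene wgIs558 makes ZTF-16 with a carboxyl-terminal GFP and FLAG tag, and chromatin was recovered with an anti-GFP antibody from 2 biological replicates of this 1 strain. Whole embryos were used, so no site can be assigned to a tissue, and no peak list from embryos without the fusion was analysed here. A snoRNA gene was called occupied when the summit of a peak, the position of its highest signal, lay within 200 bp of the gene.

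SnoRNAs guide the chemical modification of ribosomal and spliceosomal RNA. Box C/D snoRNAs, which fold around conserved boxes C and D, direct 2′-O-methylation, and box H/ACA snoRNAs, which end in an ACA box, direct pseudouridylation. In vertebrates most are cut from introns of host genes and so depend on the host's promoter, whereas nematodes also have intronic snoRNA genes with promoters of their own. Transfer RNA genes are read by RNA polymerase III from an internal promoter made of an A box and, further downstream, a B box, which the factor TFIIIC binds. In plants and in budding yeast, snoRNA genes with such boxes or a whole tRNA gene upstream are known.

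Many of the snoRNA genes with a summit in the reproducible peak list had letter matches to tRNA promoter boxes ahead of the gene, so the 100 bases upstream of 6 of them are shown here, 5′ to 3′ on the snoRNA strand and ending at the base before the gene. They were read from the RefSeq genome sequence of WBcel235. Capitals mark an A box (TGG, any 3 bases, A, any 3 bases and G) and a B box (GTTCNANNC). The intervals are chrV:12303608-12303707 on the plus strand for C51F7.3, chrII:11960798-11960897 plus for W03C9.9, chrV:19643188-19643287 minus for Y43F8C.22, chrIV:7574022-7574121 plus for F32E10.10, chrV:11314158-11314257 plus for T03F7.8 and chrIV:11474192-11474291 minus for C10C6.8. The first 5 hold both boxes, and C10C6.8 holds an A box with no B box match. C51F7.3 has a second B box match, left in lower case, that starts at -70 from the gene's 5′ end.
C51F7.3: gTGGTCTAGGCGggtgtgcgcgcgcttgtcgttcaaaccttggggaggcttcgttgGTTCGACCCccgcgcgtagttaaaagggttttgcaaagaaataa
W03C9.9: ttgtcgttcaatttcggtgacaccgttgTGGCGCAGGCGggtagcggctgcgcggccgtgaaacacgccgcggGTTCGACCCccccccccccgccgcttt
Y43F8C.22: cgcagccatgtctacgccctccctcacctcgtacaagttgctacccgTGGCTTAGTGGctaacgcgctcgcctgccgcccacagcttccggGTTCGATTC
F32E10.10: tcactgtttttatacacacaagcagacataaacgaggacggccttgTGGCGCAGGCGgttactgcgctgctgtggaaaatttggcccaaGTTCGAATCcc
T03F7.8: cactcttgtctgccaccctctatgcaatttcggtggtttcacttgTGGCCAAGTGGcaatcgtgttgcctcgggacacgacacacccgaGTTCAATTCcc
C10C6.8: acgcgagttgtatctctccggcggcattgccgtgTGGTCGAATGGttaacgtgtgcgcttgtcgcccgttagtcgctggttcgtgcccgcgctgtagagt

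A second arrangement lay ahead of a smaller set. It has AACCC followed, after any 7 or 8 bases, by GTCNGC, searched on the snoRNA strand, and was noticed in the printed sequences. In C. elegans, small nuclear RNA and spliced leader RNA genes carry a proximal sequence element in a similar place upstream. Capitals mark AACCC and GTCNGC in the 100 bases upstream of ZK994.7 (chrV:8500479-8500578, plus), Y53F4B.47 (chrII:15025894-15025993, minus) and Y67A10A.14 (chrIV:14327122-14327221, minus). The first 2 were occupied in the reproducible list and Y67A10A.14 only in the relaxed list.
ZK994.7: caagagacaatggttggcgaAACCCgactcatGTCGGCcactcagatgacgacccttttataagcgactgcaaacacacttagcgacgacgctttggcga
Y53F4B.47: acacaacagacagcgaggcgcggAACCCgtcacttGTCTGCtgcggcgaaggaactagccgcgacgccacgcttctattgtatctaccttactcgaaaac
Y67A10A.14: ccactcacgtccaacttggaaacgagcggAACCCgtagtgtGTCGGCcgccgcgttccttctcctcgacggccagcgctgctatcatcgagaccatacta

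The snoRNAs downstream of these sequences include both families. W03C9.9, at chrII:11960898-11960959 on the plus strand, begins with box C (TGATGA) and ends near box D (CTGA), and Y43F8C.22, at chrV:19643050-19643187 on the minus strand, ends with an ACA box. Capitals mark these boxes in the gene sequences.
W03C9.9 gene: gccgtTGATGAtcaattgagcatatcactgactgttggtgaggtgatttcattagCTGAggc
Y43F8C.22 gene: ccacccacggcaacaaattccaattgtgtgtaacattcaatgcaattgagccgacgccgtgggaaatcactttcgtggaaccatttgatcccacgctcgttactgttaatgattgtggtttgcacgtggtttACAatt

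The authors deposited a relaxed peak list for each replicate (21235 and 18242 peaks), a relaxed list for the pooled replicates (14968 peaks) and the 822 peaks that passed the irreproducible discovery rate (IDR) threshold. The IDR-thresholded list is called the reproducible list below. The signal value of a peak is the authors' own, has no unit, and was compared only within a list. Read numbers are not given in the lists, so depth is unknown. The median peak width is 440 bp in the pooled and reproducible lists, which limits how finely a summit places a site. Strong snoRNA peaks, such as that at C51F7.3, can be narrower.

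In the reproducible list, 55 of 346 snoRNA genes were occupied, or 15.9% (Wilson 95% interval 12.4% to 20.1%), by 56 distinct summits. The background was 0.426% of positions, the share of all placements of an interval of 130 bp, the median snoRNA length, that had a summit within 200 bp. Inside protein-coding genes 30 of 216 were occupied (13.9%, 9.91% to 19.1%), against a background of 0.239% there, and outside them 25 of 130 (19.2%, 13.4% to 26.9%), against 0.713%. The intervals of the 2 locations overlap. Intervals here cover counting error over genes only, and neighbouring genes can share a summit, although just 3 of the occupied genes (C51F7.3, C51F7.4 and C27H5.9) were within 500 bp of another snoRNA gene.

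The relaxed pooled list held a summit near 107 snoRNA genes (30.9%), where the background was 7.52%. Inside protein-coding genes it was 55 (25.5%, 20.1% to 31.7%) against 7.1% of positions, and outside 52 (40%, 32% to 48.6%) against 8.15%. In this list the intervals inside and outside narrowly do not overlap. They do overlap in each replicate's list, and when a summit in both replicate lists was required. Replicate 1 alone had a summit near 125 (36.1%) and replicate 2 near 110 (31.8%), against backgrounds of 10.6% and 9.15%. By location these backgrounds were 10.5% inside and 10.7% outside protein-coding genes for replicate 1, and 8.82% and 9.67% for replicate 2. Both replicate lists together had a summit near 84 snoRNA genes (24.3%), where the background was 3.26%. Of these, 43 lay inside protein-coding genes (19.9%, against 2.81%) and 41 outside (31.5%, against 3.95%). All of these shares were several-fold above the positions' own share, and the ratio was widest in the reproducible list.

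**Figure D1:**
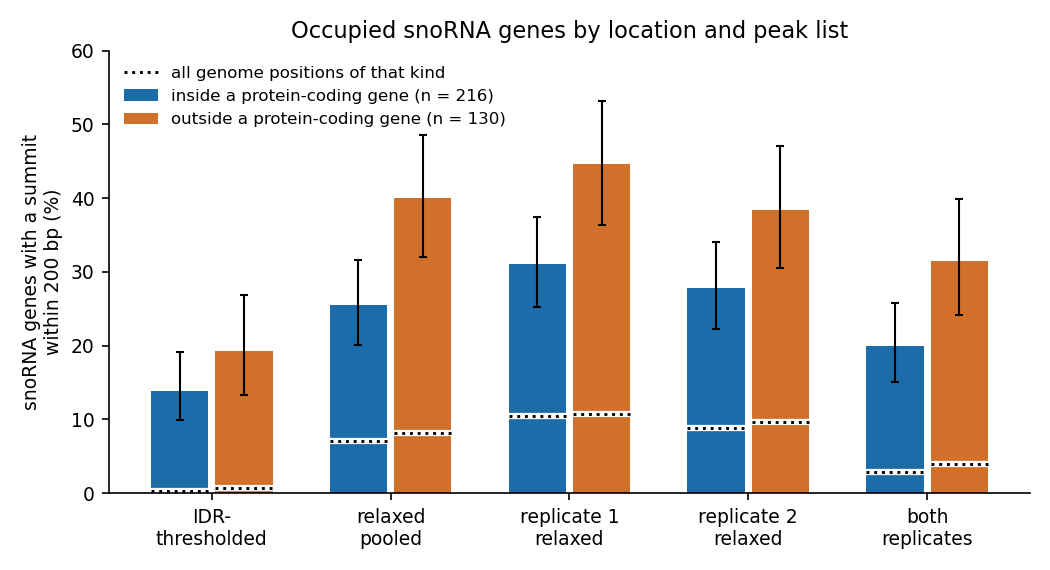
Percent of snoRNA genes with a summit within 200 bp (vertical axis) in each peak list (horizontal axis), inside (216 genes, blue) and outside (130 genes, orange) protein-coding genes. Bars are shares, error bars are Wilson 95% intervals over genes and dotted lines are the share of all genome positions of that kind; in the reproducible list 13.9% and 19.2% of genes stand above dotted lines at 0.239% and 0.713%.

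Other gene classes with a summit of the reproducible list within 200 bp give a scale for the snoRNA value. The share was 27.6% of 612 tRNA genes, 7.75% of 129 small nuclear RNA genes, 2.3% of 261 microRNA genes and 3.55% of 7764 genes of the ncRNA biotype. Among 20 ribosomal RNA genes none was occupied, and for piRNA genes the share was 0.0391%. No snoRNA gene lay within 200 bp of an annotated tRNA gene (0 of 346), and no occupied one lay near an annotated small nuclear RNA or microRNA gene.

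The occupied snoRNA genes held strong peaks. Their median signal was 221 (223 inside and 201 outside protein-coding genes), whereas the median over all 822 reproducible peaks was 108. In all, 29 of the 100 strongest peaks lay near a snoRNA gene, against 56 of all 822 peaks. Counted per peak, the median signal of those 56 was 206. Of the 55 genes, 52 exceeded the list's median signal. The 3 that did not were Y37E3.20, W06H8.17 and F39B2.14, with signals of 94.4, 98.2 and 86.5.

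The replicates placed summits at nearly all of these genes. A summit lay within 200 bp in both replicate lists at 54 of 55 genes (98.2%, 90.4% to 99.7%), and the exception was W06H8.17, whose nearest summit in replicate 1 was 201 bp away. For 52 genes the summit ranked 822 or better in both replicates. The remaining genes were the same 3 with low signal: F39B2.14 ranked 581 and 932 in replicates 1 and 2, Y37E3.20 ranked 986 and 442, and W06H8.17 ranked 501 in replicate 2. Across the 54 genes the replicates' signals had a Spearman correlation of 0.91. The sites were selected on the pooled signal and, by the IDR threshold, for agreement between the replicates. The share, the ranks and the correlation are therefore descriptions and not evidence of agreement from outside that selection.

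**Figure D2:**
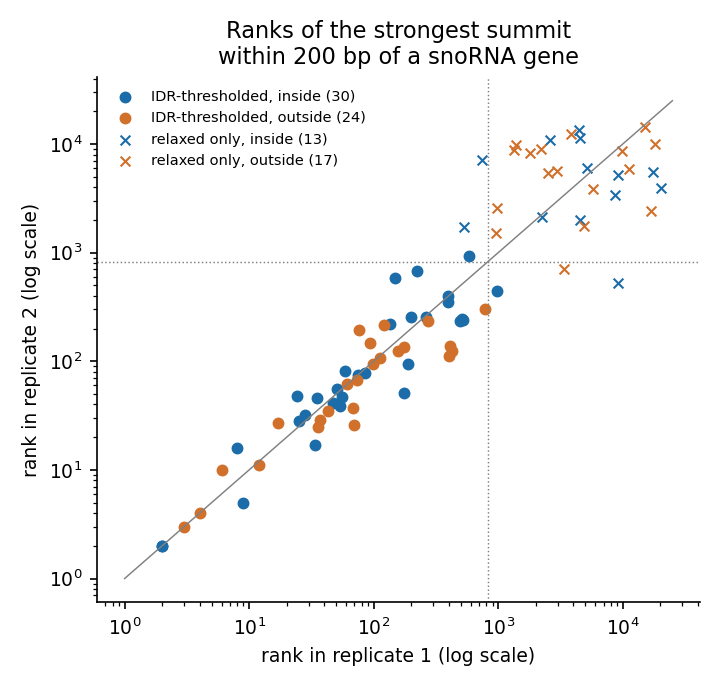
Rank of the strongest summit within 200 bp of each snoRNA gene in replicate 1 (horizontal) and replicate 2 (vertical), both on log scales, where rank 1 is the strongest peak of a list. Circles are genes in the reproducible list, crosses are genes in the relaxed pooled list only, dotted lines mark rank 822, and the solid line is equal rank; 52 of the 54 circles lie within both dotted lines.

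The strongest snoRNA peak was at C51F7.3, a box C/D gene at chrV:12303708-12303783 in an intron of frm-7, which encodes a FERM domain protein. The peak (chrV:12303463-12303822) had a signal of 619, rank 2 of 822, with 313 in replicate 1 and 314 in replicate 2, and ranked 2 in each. The same summit, 74 bp upstream of C51F7.3, fell within C51F7.4, a snoRNA gene annotated at chrV:12303599-12303693 over most of the sequence printed for C51F7.3, so the pair is 1 site. Read from C51F7.3, the summit lies between the A box and the B box marked in capitals. The unmarked B box match starts at -70, just downstream of the summit.

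Other strong sites inside protein-coding genes lay in introns of genes with unrelated products. ZK994.7, in pxn-1 (peroxidasin), had a signal of 454, with 218 and 236 in replicates 1 and 2. Y43F8C.22, in the gene Y43F8C.7, had 395, with 221 and 173. C10C6.8, in catp-8 (a cation-transporting ATPase), had 311, with 140 and 170. All 3 are on the strand of the host, and their summits were 22, 34 and 42 bp upstream of the snoRNA 5′ end.

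Of the 12 snoRNA genes with the strongest signals inside protein-coding genes, of which C51F7.3 and C51F7.4 share a site, 4 ran against the host's strand, where the host's transcript cannot yield the snoRNA. They were T03F7.8 in cutl-18 (a cuticlin-like gene, signal 302), C04G6.12 in mpk-2 (a mitogen-activated protein kinase, 292), B0334.12 in twk-5 (a potassium channel, 264) and C27H5.9 in pdl-1 (258). Over all genes, 7 of 33 snoRNA genes on the opposite strand were occupied (21.2%, 10.7% to 37.8%) and 23 of 183 on the host's strand (12.6%, 8.52% to 18.2%), and these intervals overlap. D1046.6 in cfim-2 (a pre-mRNA cleavage factor subunit, 288), C27H6.5 in unc-41 (a stonin, 252) and F55A11.10 in F55A11.6 (249) complete the 12.

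Outside protein-coding genes the strongest site was at W03C9.9, where the signal was 578, with 292 and 285 in replicates 1 and 2, and rank 3 in each. The nearest protein-coding 5′ end, that of W03C9.1, was 1230 bp away. ZK265.10 had 520 (262 in each replicate), T06C12.16 had 430 (228 and 203), T02E1.9 had 396 (197 and 198) and F32E10.10 had 331 (179 and 150). Nearest 5′ ends lay 559 bp from ZK265.10 (sre-23), 1353 bp from T06C12.16 (str-56), 520 bp from T02E1.9 (T02E1.2) and 1596 bp from F32E10.10 (cec-4). The other 7 of the 12 strongest were C41C4.11, H09I01.2, Y53F4B.47, T19B4.8, C46C2.8, T27A3.9 and ZK643.9, with signals from 294 down to 227. Their distances to a protein-coding 5′ end ran from 221 bp (Y53F4B.47, near cmtr-1) to 6910 bp (H09I01.2, near K07H8.7). T02E1.9 and T27A3.9 each overlap a protein-coding gene in part.

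Position relative to protein-coding promoters was examined next. Taking 1000 bp upstream to 200 bp downstream of a protein-coding 5′ end as a promoter window, 16 of 106 snoRNA genes in such a window were occupied (15.1%, 9.51% to 23.1%) and 39 of 240 elsewhere (16.2%, 12.1% to 21.4%), with overlapping intervals. Of all 19973 protein-coding genes, 3.29% had a summit of the reproducible list in this window.

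The promoters of the host genes themselves were also examined. Among 29 hosts of occupied snoRNA genes, 1 (tmem-107) had a reproducible summit in its own promoter window, or 3.45% (0.611% to 17.2%). Among the other 159 hosts it was 21 (13.2%, 8.80% to 19.3%), and these intervals overlap. At tmem-107 the summit that makes its snoRNA gene F39B2.14 occupied lies in that promoter window, so the same peak enters both counts. Cytosolic ribosomal protein genes are classic snoRNA hosts and were examined as a group. They were taken by names that begin with rpl-, rps- or rla-, so any such gene under another name was not counted. Of the 13 hosts so named, 6 had a reproducible summit in the promoter window (rpl-4, rpl-7A, rpl-15, rpl-24.1, rps-12 and rps-23), and 11 of 13 had a relaxed pooled one. The backgrounds over protein-coding genes were 3.29% and 23.5%. None of the 19 snoRNA genes inside them was occupied in the reproducible list (upper limit of the interval 16.8%) or in the relaxed pooled list. Over all snoRNA genes inside protein-coding genes these shares were 13.9% and 25.5%, so in the reproducible list the interval includes the overall share. In the relaxed pooled list the same upper limit lies below the overall share, although some of the 19 genes share a host. None of the 19 had an A box and B box upstream. The 3 hosts with 3 or more snoRNA genes (nol-56, rpl-6 and top-2) had 0 of 10 occupied in either list, too few genes to set apart from those overall shares.

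Summits were placed just ahead of the snoRNA genes. Along the snoRNA strand, the nearest summit lay at a median of 38 bp upstream of the 5′ end, which is -38 bp (quartiles -56 and -23.5, range -162 to 133). It was upstream at 47 of 55 genes and within the first 100 bp upstream at 44 (80.0%, 67.6% to 88.4%). Inside and outside protein-coding genes, 25 of 30 and 19 of 25 lay within those 100 bp.

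The 8 exceptions can be named. The summit lay within the gene (C51F7.4, T10B9.11, Y38F2AR.14, W01C9.6 and ZK20.9) at 5 of them and past its 3′ end (W03C9.9, F55A11.10 and B0334.12) at 3. At W03C9.9 and F55A11.10 a stronger summit lay upstream, so with the strongest summit in place of the nearest the median was -39. B0334.12 had no stronger summit upstream, and its summit was 133 bp past the 5′ end and 64 bp past the gene. A B box match on the opposite strand lay 79 bp past its 5′ end, also beyond the gene, and was outside the upstream searches.

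**Figure D3:**
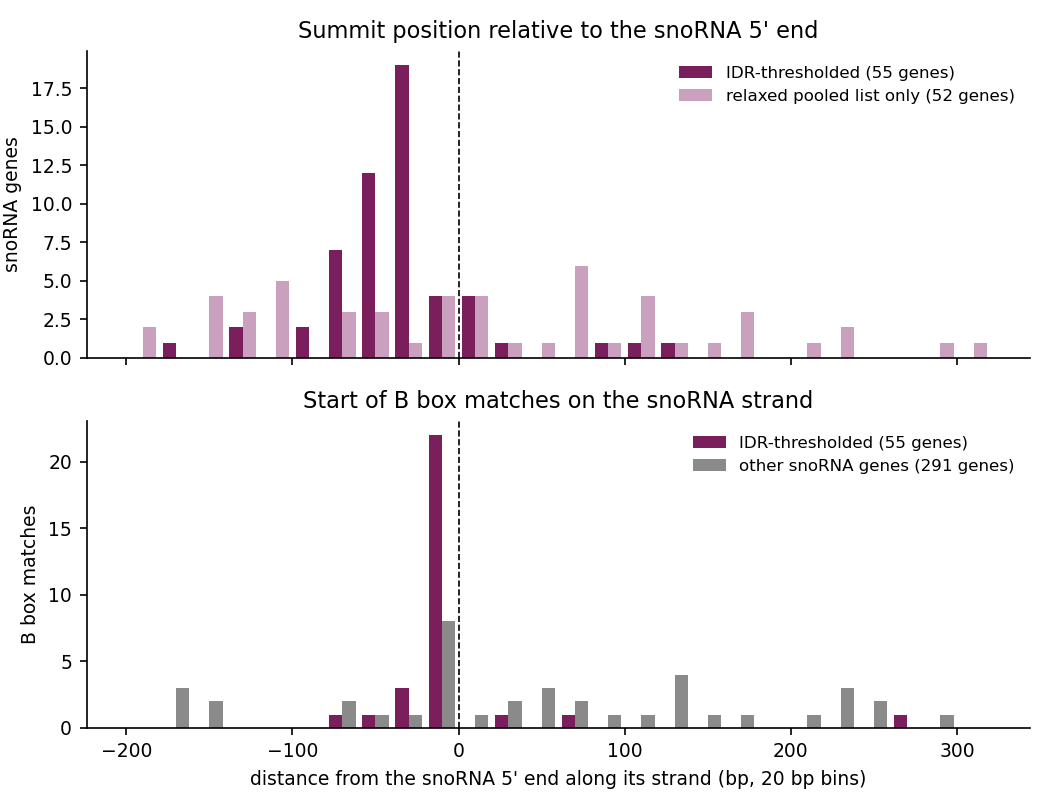
Top, number of snoRNA genes by position of the nearest summit relative to the snoRNA 5′ end, in 20 bp bins along the snoRNA strand (negative is upstream, dashed line is the 5′ end), for the 55 genes of the reproducible list and the 52 of the relaxed pooled list only. Bottom, number of B box matches on the snoRNA strand by start position; the reproducible genes peak at 20 to 40 bp upstream for summits and within 20 bp upstream for B boxes, and the relaxed-only summits spread over the window.

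The A box and B box were more frequent ahead of occupied than of other snoRNA genes, although 15 of the 55 occupied genes had neither. A B box on the snoRNA strand within 100 bases upstream was present at 23 of 55 occupied genes (41.8%, 29.7% to 55.0%) and 10 of 291 others (3.44%, 1.88% to 6.21%), and 1.77% of all 100-base windows on either strand of the genome hold one. An A box was present at 38 of 55 (69.1%) and 19 of 291 (6.53%), against 7.56% of windows. An A box followed 30 to 70 bases later by a B box was present at 21 of 55 occupied genes (38.2%, 26.5% to 51.4%) and 2 of 291 others (0.687%), against 0.0662% of windows. On the opposite strand no occupied gene had a B box within those 100 bases (0 of 55, upper limit 6.53%). With both strands counted, the B box shares were 23 of 55 and 12 of 291, against 3.49% of windows. The A box, the pairing and the count on the snoRNA strand alone were added after the upstream sequences had been seen. The B box on both strands was chosen with tRNA genes already known to be occupied in these data.

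Read the other way, 21 of the 23 snoRNA genes with the paired boxes were occupied (91.3%, 73.2% to 97.6%), 11 of 12 inside protein-coding genes and 10 of 11 outside. The same 21 had a summit in both replicate lists. The exceptions were Y6B3B.15, in lagr-1, and Y59E1B.14 on chromosome X, with an annotated pseudogene upstream, as also at the occupied T08B2.13 and D1046.6. Neither exception had a summit in the pooled or replicate lists. Of 44 snoRNA genes with one box alone, 19 were occupied (43.2%, 29.7% to 57.8%). Of 279 with neither box, 15 were (5.38%, 3.28% to 8.68%).

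The boxes had a narrow range of spacing from each other and from the gene. In the 21 occupied genes the B box began a median of 44 bases after the A box (quartiles 44 and 45, range 36 to 67). Over the 23 occupied genes with a B box it began at a median of -14 (quartiles -17 and -12, range -44 to -9). The upper end is set by the search, since the whole box had to lie upstream. B boxes that run into the annotated gene were found at the occupied genes C05D2.15 and Y23H5B.10, starting at -8, and Y38F2AR.14, starting at -5, and are not in the counts above. The B box ended within a few bases of the annotated snoRNA start at most of them, as in the printed sequences of Y43F8C.22 and F32E10.10. The summit's median position relative to the B box centre was -28 bp, and at tRNA genes of the reproducible list it was -38 bp.

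**Figure D4:**
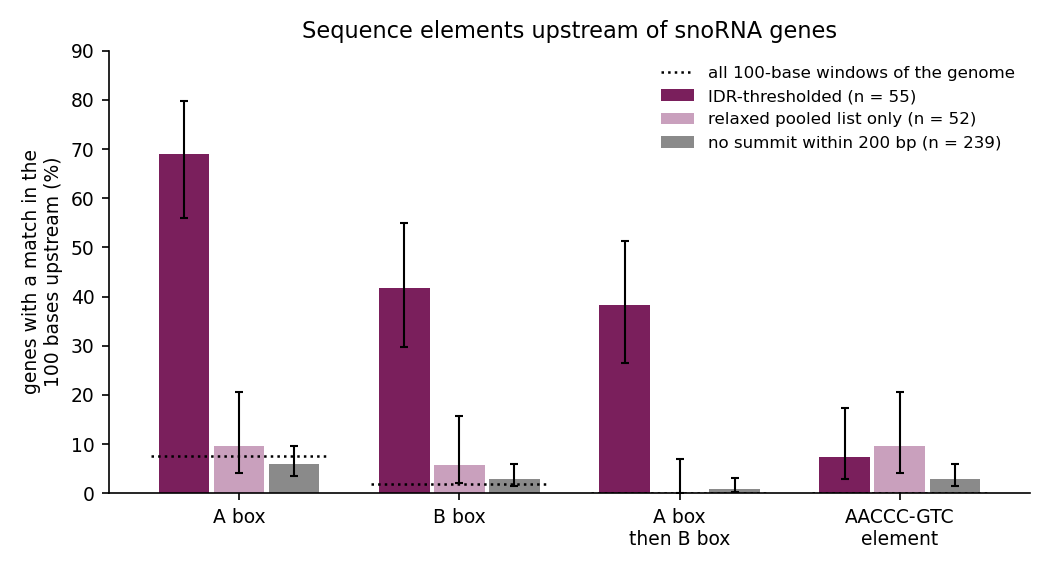
Percent of snoRNA genes with each sequence element in the 100 bases upstream on the snoRNA strand, for 55 genes in the reproducible list, 52 in the relaxed pooled list only and 239 with no summit within 200 bp. Bars are shares, error bars Wilson 95% intervals, and dotted lines the share of all 100-base windows of the genome; the paired boxes stand at 38.2%, 0% and 0.837%.

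The same pair of boxes was then followed across the genome, which holds 2926 A and B box pairs of this spacing. Among 372 that overlap a tRNA gene on its strand, 28% had a reproducible summit within 200 bp. Over all 612 tRNA genes, with or without the pair, that share was a similar 27.6%. Among the 23 upstream of snoRNA genes it was 91.3%, and among 2524 more than 200 bp from any tRNA gene and not ahead of a snoRNA gene it was 0.357%, against 0.426% of all positions. Away from tRNA and snoRNA genes, a match to the letters was thus close to the share of all positions. tRNA genes can be near-identical copies, and the sources used here do not say how the authors treated reads that map to several places. No 2 snoRNA genes had the same sequence. The share of upstream windows with the pair was 0.015% for protein-coding genes, 0% for small nuclear RNA genes and tRNA genes, and 1.53% for microRNA genes.

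The AACCC and GTCNGC element marked 16 of 346 snoRNA genes (4.62%, 2.87% to 7.38%), against 0.0455% of windows, and none of these had an A or B box. It began at a median of -61 (range -85 to -57). Ahead of small nuclear RNA genes its share was 7.75% (10 of 129), ahead of microRNA genes 0.383% and ahead of protein-coding genes 0.025%. Of the 16, 4 were occupied in the reproducible list (25%, 10.2% to 49.5%): ZK994.7, Y53F4B.47, F59C6.15 and Y37E3.20. That interval includes the 15.9% over all snoRNA genes. A further 5 were occupied in the relaxed pooled list (F25H2.15, F47G4.9, F01D5.12, Y67A10A.14 and T19C4.11), which gives 9 of 16 (56.2%, 33.2% to 76.9%). In that list the share over all snoRNA genes was 30.9% and the background over positions 7.52%. Among the 10 small nuclear RNA genes with the element, 4 were occupied in the reproducible list, where the share over all small nuclear RNA genes was 7.75%. They were sup-6, F54D8.7 and 2 copies listed as R07E5.16, another copy of which was unoccupied. The treatment of reads shared by such copies is not stated here either. These names follow from the element, which was chosen after the sequences were seen.

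Signals at the 4 genes with this element spanned most of the range. ZK994.7 had 454, Y53F4B.47 had 272 (129 and 142 in replicates 1 and 2), F59C6.15 had 190.5 (100 and 84.7) and Y37E3.20 had 94.4 (39.6 and 53.3). The median was 226 with paired boxes, 188 with one box alone and 174 at the 11 genes with none of these elements. The ranges overlap between all of these groups.

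**Figure D5:**
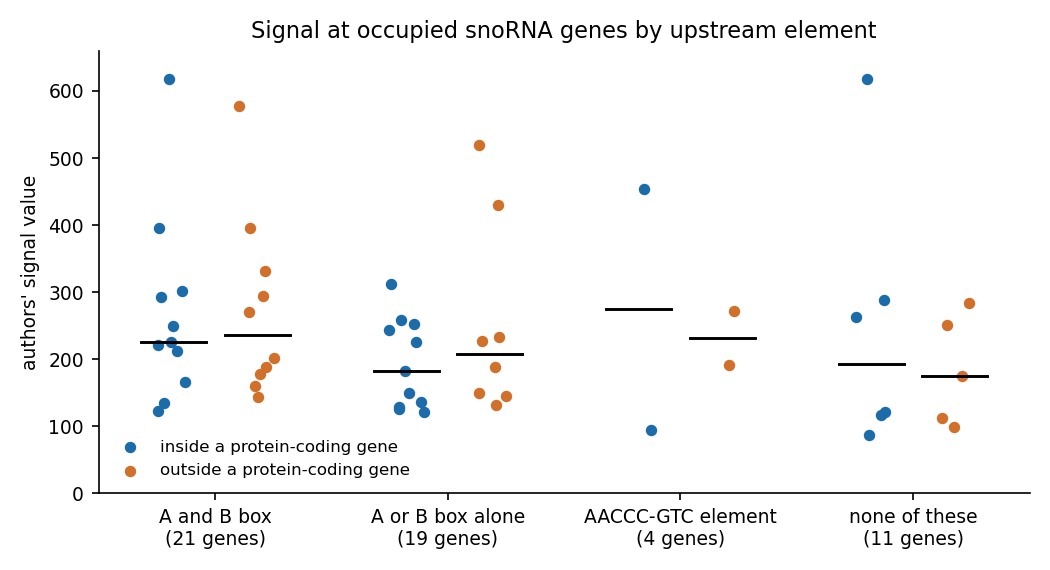
The authors' signal value in the reproducible list (vertical axis, no unit) at each of the 55 occupied snoRNA genes, grouped by upstream element and coloured by location inside or outside a protein-coding gene. Black lines are medians of each colour; values range from 86.5 to 619 and overlap between all 4 groups.

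The 11 genes with none of the elements upstream on the snoRNA strand include strong and weak sites. C51F7.4 shares the summit of C51F7.3 and so takes its signal from a gene with paired boxes. D1046.6 (288), H09I01.2 (284), B0334.12 (264) and C46C2.8 (250) were strong, Y23H5B.10, whose B box match at -8 runs into the gene and so was not counted, had 174, and T04A8.17, Y71D11A.7, M7.15, W06H8.17 and F39B2.14 ranged from 121 down to 86.5. The last 3 had the summits farthest from the gene, at 162, 137 and 123 bp, and were the 3 just inside the 200 bp limit. Just outside it were Y17G7B.25 (210 bp), K02F3.15 (213 bp) and F54E7.10 in rps-12 (240 bp).

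Other features of the genes and their surroundings were counted in the same groups. Upstream GC content had a median of 55.0% (range 36% to 69.0%) at the 55 occupied genes and 42.0% at the 291 others, and the part of base composition in the A and B box counts was not tested. A run of TTTT, which can end RNA polymerase III transcription, lay within 50 bases downstream on the snoRNA strand at 51 of 55 occupied genes (92.7%, 82.7% to 97.1%). It lay there at 190 of 291 others (65.3%, 59.7% to 70.5%), against 51.3% of all 50-base windows. A TATAAA upstream on that strand was found at 2 occupied genes (H09I01.2 and D1046.6; 3.64%) and 20 of 291 others (6.87%), against 6.25% of windows, so the shares were close to background. Another annotated non-coding gene overlapped the upstream 100 bases at 15 of 55 occupied genes and 28 of 291 others.

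The occupied share differed with gene length, and the intervals of the shortest and the longest class do not overlap. Of genes up to 100 bases, 30 of 95 were occupied (31.6%, 23.1% to 41.5%), of those over 100 and up to 150 bases 22 of 141 (15.6%, 10.5% to 22.5%), and of those over 150 bases 3 of 110 (2.73%, 0.932% to 7.71%). Those 3 were F59C6.15, W06H8.17 and F39B2.14. Box C/D snoRNAs are typically shorter than box H/ACA snoRNAs, and by simple letter matches both kinds were present. Box D (CTGA in the last 20 bases) was found at 25 of 55 occupied and 56 of 291 other genes, and ACA at the 3′ end at 16 of 55 and 42 of 291. One or both were found at 38 of 55 occupied genes (69.1%) and 91 of 291 others (31.3%), so 200 of the others had neither match. No background share was counted for these short motifs. All 6 occupied genes with a strict box C (TGATGA in the first 20 bases) had the paired upstream boxes: C51F7.3, W03C9.9, T02E1.9, F32E10.10, F55A11.10 and F30H5.4.

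Occupied snoRNA genes were on every autosome and not on X. The counts were 12 of 74 on chromosome I, 14 of 71 on II, 6 of 54 on III, 10 of 59 on IV and 13 of 55 on V, or 11.1% to 23.6%. On X it was 0 of 33, with an upper limit of 10.4%, although 0.508% of X positions lay within 200 bp of a reproducible summit. That share was 0.509% on I, 0.404% on II, 0.565% on III, 0.355% on IV and 0.282% on V. In the relaxed pooled list 6 of 33 snoRNA genes on X were occupied (18.2%, 8.61% to 34.4%), so a difference from the autosomes was not shown there.

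The 52 snoRNA genes found in the relaxed pooled list alone looked different. Their median signal was 42.5, against a median of 35.9 over that list, and 30 of 52 had a summit in both replicate lists (57.7%, 44.2% to 70.1%). Their summits did not gather upstream: the median position was 3 bp past the 5′ end, 25 of 52 were upstream and 11 within the first 100 bp upstream. None had the paired boxes, 5 had an A box (R12E2.17, C17D12.8, K02C4.7, R166.7 and K09E9.5) and 3 a B box (F25H5.9, C02F5.15 and C53B7.8). The strongest inside genes were C17D12.8 in pcmd-1 (signal 66.4, with 19.8 and 49.4 in the replicates), F58D5.12 in F58D5.5 (64.6, with 51.1 and 30.5) and K10G6.10 in sea-2 (64.5, with 29.9 and 28.8). Outside genes they were C26C6.13 (65.8), Y67A10A.14 (62.2) and C36E8.11 (59.6). The relaxed list was deposited as peaks and background together, so weak entries may be background.

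Genes for the proteins that form snoRNA particles were examined by promoter window. Of 8 such genes, 1 had a reproducible summit there (background over protein-coding genes 3.29%): fib-1, encoding the methyltransferase fibrillarin, with a signal of 204 (rank 91) at 146 bp upstream of the 5′ end. In the relaxed pooled list 6 of 8 had one, where the background over protein-coding genes was 23.5%: fib-1, dkc-1 (the pseudouridine synthase dyskerin), nol-58, snu-13, nola-3 and Y48A6B.3. The core C/D protein gene nol-56 and the H/ACA protein gene garr-1 had none. Signals of the nearest summit at dkc-1, nol-58, snu-13 and Y48A6B.3 ran from 51.4 (snu-13) to 64.2 (nol-58). At nola-3 the nearest summit (33.5) lay 284 bp downstream of the 5′ end, past the window. The signal of its summit in the window is not given here.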

How the data were processed

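ChIP-seq peak lists of 2 biological replicates (1 group) were used. The authors deposited 4 narrowPeak lists in ce11, per the file notes: a relaxed list per replicate and for the pool, called against 1 control file, and the IDR-thresholded list. The signal value in each deposited list is the authors' peak caller's own. The sources used here name no aligner, caller or IDR threshold. Lists in ce10 were not used.

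SnoRNA genes came from Ensembl release 115 and sequences from the RefSeq genome of WBcel235. Summits were read as 1-based positions. A gene was occupied when a summit lay within 200 bp, and its signal was that of the strongest such summit. Inside meant wholly within a protein-coding gene on either strand; 6 genes that partly overlap one counted as outside. Backgrounds were exact counts over all genome positions. Intervals are Wilson 95%. No test was made, since the design has 1 group. The members, motifs and lists were chosen with earlier results of these data known. Genes are named when among the 12 strongest at each location, the 3 strongest in the relaxed list only, nearest the 200 bp limit, or on the snoRNA particle list; other names were chosen after their values were seen. Occupancy calling was checked on simulated summits. Alternatives varied the distance, list, replicate, gene set and motifs. Python 3.11.15, numpy 2.4.6, pandas 2.3.3, scipy 1.17.1 and matplotlib 3.10.9 were used.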

Additional observations from a re-analysis of the deposited data

How the results depend on the processing

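With a limit of 0 bp in place of 200 bp, 5 snoRNA genes were occupied in the reproducible list, 0.926% inside and 2.31% outside protein-coding genes, because most summits lay ahead of the gene. With the relaxed pooled list the count was 107, the shares 25.5% and 40%, and the median summit position -30 bp. Without either replicate, using as many of the strongest peaks of the other, 56 to 57 genes were occupied and the median position was -42.0 to -38.5 bp. With 500 bp, 100% of occupied genes had a summit in both replicate lists. Limits of 100 and 500 bp gave 52 and 64 occupied genes, peaks above the list's median signal gave 52, and any overlap of peak and gene gave 55. Leaving out genes in promoter windows, or all but 1 gene per cluster, gave shares of 15.3% and 14.8% inside and 18.2% and 19.4% outside. Counting opposite-strand genes as outside gave 12.6% and 19.6%, and counting exon-overlapping ones as outside gave 15.4% and 16.4%. Other definitions of the A and B boxes, chosen after seeing the data, left 85.7% to 94.1% of genes with the pair occupied. No paired analysis was possible because the design has 1 group. Unknown read depth and wide peaks limit weak sites and positions.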
